A study of Mus musculus with 8 samples.

Results

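The HoxA cluster was followed here through 8 of its genes, Hoxa2, Hoxa3, Hoxa4, Hoxa5, Hoxa7, Hoxa9, Hoxa10 and Hoxa11, in Men1-KO and wild-type (WT) mouse embryonic stem cells (mESCs) and in the pancreatic islet-like endocrine cells (PILECs) made from them in culture. The members are all probe sets of the deposited expression table whose gene symbol in the array annotation is one of these 8 genes. They came to 15 probe sets, of 34945 probe sets with 1 gene symbol, which stand for 18193 genes. Hoxa3 had 4 probe sets, Hoxa4, Hoxa5, Hoxa9 and Hoxa10 had 2 each, and Hoxa2, Hoxa7 and Hoxa11 had 1 each. Values are log2 signals as deposited, so a difference of 1 is a 2-fold difference in signal. All 8 genes matched the mouse assembly GRCm38.p6 by gene identifier and lie on chromosome 6, along the cluster in the order in which they are named above.

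The 8 arrays fell into 4 groups of 2. Men1-KO PILECs were derived from the Men1-KO mESC line 3.2N, which lacks menin, and WT PILECs were derived from the WT mESC line TC-1. The other groups were undifferentiated Men1-KO mESCs of line 3.2N and undifferentiated WT mESCs of line TC-1, and all cells had the genetic background 129S6/SvEvTac. The mESCs were grown on irradiated embryonic fibroblast feeders and then freed of them by short rounds of plating, before embryoid body formation and stepwise culture ending in nicotinamide. The arrays of a group came from independent cultures, and each genotype was 1 cell line, so that a difference between genotypes cannot be told apart from a difference between lines, and p-values measure the spread between cultures.

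Hox genes encode homeodomain transcription factors that give cells their position along the body axis, and in vertebrates they lie in clusters whose order matches the order of expression from head to tail. In pluripotent cells the clusters are held silent with both Polycomb marks and trimethylation of histone H3 at lysine 4 (H3K4me3) on their promoters. MLL complexes, which add H3K4me3, maintain Hox expression once it has begun, and menin, the product of Men1, is a subunit of the MLL1 and MLL2 complexes. The study profiled these cells to ask which genes depend on menin before and after differentiation.

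The promoters of the members with the largest differences are shown with that of Hoxa7, the neighbor of Hoxa9, for which no difference passed the test. Each line gives the 150 bases before the annotated start, 5' to 3' on the minus strand, from RefSeq on GRCm38.p6, with CpG dinucleotides in capitals.
Hoxa2, chr6:52164832-52164981: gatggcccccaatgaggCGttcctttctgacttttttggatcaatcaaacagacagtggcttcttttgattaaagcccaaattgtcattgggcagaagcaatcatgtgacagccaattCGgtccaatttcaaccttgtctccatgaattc
Hoxa5, chr6:52204588-52204737: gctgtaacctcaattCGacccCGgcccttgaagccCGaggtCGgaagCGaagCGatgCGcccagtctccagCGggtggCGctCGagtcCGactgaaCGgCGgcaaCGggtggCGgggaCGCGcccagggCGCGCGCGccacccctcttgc
Hoxa7, chr6:52218574-52218723: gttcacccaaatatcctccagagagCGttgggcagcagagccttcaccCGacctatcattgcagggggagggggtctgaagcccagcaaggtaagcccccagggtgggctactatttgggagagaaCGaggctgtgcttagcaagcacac
Hoxa9, chr6:52227371-52227520: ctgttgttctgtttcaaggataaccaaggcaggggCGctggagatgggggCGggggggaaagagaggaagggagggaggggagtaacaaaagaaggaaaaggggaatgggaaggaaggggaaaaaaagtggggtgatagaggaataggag
These promoters differed in CpG content. In windows of 300 bases (250 before the start and 50 after it), Hoxa5 had 29 CpGs, above 87.1% of 32851 mouse promoter windows, Hoxa2 and Hoxa7 had 9 each (above 54.2%), and Hoxa9 had 4 (above 31.4%), where the median window had 7. Windows were found for 7 of the 8 members, 8 windows in all with 4 to 29 CpGs. The windows were searched on both strands for 5 motifs. TTTATG, bound by Cdx factors, was in the Hoxa7 window and in 11.9% of all windows. TGATNNAT, bound by Pbx-Hox pairs, was in the Hoxa2 window and in 8.8% of all windows. AGGTCA, a half-site of retinoic acid receptors, was in the Hoxa5 window and in 16.3% of all windows. TATAAA, the TATA box, was in 1 Hoxa10 window and in 13.6% of all windows, and CACGTG, the E-box, was in 0 of the 8 windows and in 7.2% of all windows. TTTATG and the reverse complement of TATAAA share 5 letters but cannot match at the same place.

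Over all probe sets, the 2 arrays of a group correlated at 0.993 to 0.998, and the SD of their log2 difference was 0.283 in Men1-KO mESCs and between 0.159 and 0.212 in the other groups. Men1 itself (1416347_at) averaged 7.99 ± 0.05 in Men1-KO PILECs and 9.99 ± 0.10 in WT PILECs, and 7.79 ± 0.03 in Men1-KO mESCs and 9.94 ± 0.04 in WT mESCs (SD, n = 2 each). It was 4.01-fold lower in Men1-KO PILECs (limma adjusted p = 7.46e-05) and 4.42-fold lower in Men1-KO mESCs (limma adjusted p = 4.9e-05). Its signal did not go to background in Men1-KO cells, and whether the probe set reads the deleted part of the gene is not given in the sources used here. Of 13 islet endocrine genes measured, 6 in Men1-KO PILECs and 5 in WT PILECs lay under the low-signal limit defined next. Of all probe sets tested, 45.4% in Men1-KO PILECs and 41.9% in WT PILECs lay under it, shares close to these counts. Gcg (glucagon), Ppy (pancreatic polypeptide), Iapp (amylin) and Pdx1, a pancreatic transcription factor, were under the limit in both groups. From mESCs to PILECs, 8 of the 13 rose and 1 fell in Men1-KO cells, where 28.4% and 35.6% of all genes did. In WT cells 6 rose and 2 fell, where 27.3% and 34.9% of all genes did. The study's islet label drew on RT-PCR of islet transcripts, NeuroD1 protein and C-peptide staining.

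Most HoxA probe sets were dim. The table has no detection calls, so the 80 probe sets of olfactory and vomeronasal receptor genes, which these cells are not known to use, served as a guide to background. The 95th percentile of their group means was taken as the low-signal limit, and it was 6.91 in Men1-KO PILECs, 6.68 in WT PILECs, 6.52 in Men1-KO mESCs and 6.40 in WT mESCs. Under it lay 11 of the 15 HoxA probe sets in Men1-KO PILECs, 9 in WT PILECs, 11 in Men1-KO mESCs and 11 in WT mESCs, against 45.4%, 41.9%, 40.3% and 38.4% of all probe sets tested in the same groups. The 9 under the limit in every group were Hoxa2, the 3 dimmer Hoxa3 probe sets, both Hoxa4, both Hoxa10 and Hoxa11. The 4 at or above it in every group were 1 probe set each of Hoxa3 (1452421_at), Hoxa5 (1443803_x_at), Hoxa7 and Hoxa9 (1421579_at). The remaining 2, Hoxa5 1448926_at and Hoxa9 1455626_at, were above the limit in WT PILECs and under it in the other groups. Probe sets differ in brightness, so a probe set under the limit may still follow its transcript, but its signal includes background and its fold difference is then a fold of signal.

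**Figure D1:**
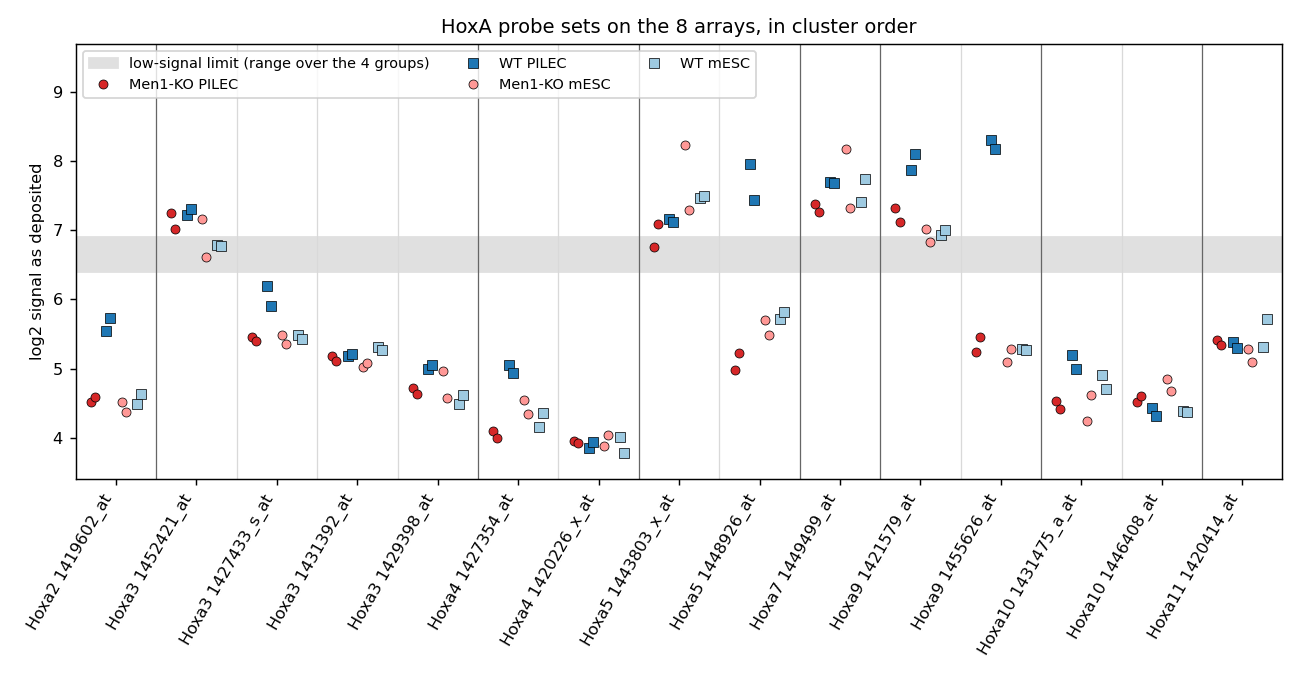
Log2 signal as deposited (vertical axis) of the 15 HoxA probe sets (horizontal axis, in cluster order) on each of the 8 arrays, with circles for Men1-KO and squares for WT. The gray band spans the low-signal limits of the 4 groups, 6.40 to 6.91, and only Hoxa5 1448926_at and Hoxa9 1455626_at stand above it in WT PILECs and below it in the other groups.

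To ask which HoxA genes differed without menin in differentiated cells, Men1-KO PILECs were compared with WT PILECs. Of the 15 probe sets, 6 were lower in Men1-KO PILECs at an adjusted p under 0.05, where 2.56% of all probe sets were lower, and 0 were higher, where 1.31% of all were higher. At an unadjusted p under 0.05, 8 were lower and 0 were higher by limma, where 12.4% and 7.03% of all were. The 6 were Hoxa2, 1 of 4 for Hoxa3, 1 of 2 for Hoxa4, 1 of 2 for Hoxa5 and both for Hoxa9. The median difference was -0.37 over the 15 probe sets and -0.01 over all probe sets tested. At the study's cutoffs of 2-fold or more and p below 0.005, applied here to limma p-values before adjustment, 3 of the 15 were lower (0.438% of all probe sets). The study's methods do not say which test gave its p-values, so its own count may differ. Fewer of the 15 passed when any 1 PILEC array was left out, and so did fewer of all probe sets. Over the alternatives the largest of the 6 differences, that of Hoxa9 1455626_at, ran from -3.01 to -2.79. The smallest, that of Hoxa3 1427433_s_at, ran from -0.78 to -0.47. These are bulk samples, in which fewer cells of a type and less RNA per cell cannot be told apart.

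Hoxa9, which acts in blood progenitors and in axial patterning, had the largest difference. On 1455626_at the signal was 5.24 and 5.45 in Men1-KO PILECs, 8.31 and 8.19 in WT PILECs, 5.10 and 5.29 in Men1-KO mESCs, and 5.29 and 5.27 in WT mESCs. WT PILECs thus stood apart, and the Men1-KO PILEC arrays overlapped those of both mESC groups. The difference in PILECs was -2.90 with a standard error (SE) of 0.11, a 7.48-fold lower signal (limma adjusted p = 7.46e-05). Because Men1-KO PILECs were under the low-signal limit, the fold is also given against that limit, and Hoxa9 was at least 2.53-fold lower on this probe set. The other Hoxa9 probe set, 1421579_at, was brighter in most groups and moved less, with 7.32 and 7.12 in Men1-KO PILECs, 7.87 and 8.10 in WT PILECs, 7.02 and 6.83 in Men1-KO mESCs, and 6.94 and 7.0 in WT mESCs. It was above the limit throughout, and its difference in PILECs was -0.77 (SE 0.12, 1.70-fold lower, limma adjusted p = 0.0178). This smaller call was lost without any 1 of the 4 PILEC arrays and without moderation of the variances. Over the alternatives its difference ran from -0.88 to -0.65. The probe sets of Hoxa9 differed in size but not in direction.

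Hoxa5, which patterns the neck and upper thorax and is needed for lung development, had its highest signal in WT PILECs on 1 of its 2 probe sets only. On 1448926_at the signal was 4.98 and 5.23 in Men1-KO PILECs, 7.97 and 7.44 in WT PILECs, 5.70 and 5.48 in Men1-KO mESCs, and 5.71 and 5.82 in WT mESCs. Here the Men1-KO PILEC arrays were below all 6 other arrays. The difference in PILECs was -2.60 (SE 0.18, 6.06-fold lower, limma adjusted p = 0.000446), or at least 1.73-fold lower against the low-signal limit. The brighter probe set, 1443803_x_at, read 6.76 and 7.10 in Men1-KO PILECs, 7.17 and 7.13 in WT PILECs, 8.23 and 7.29 in Men1-KO mESCs, and 7.47 and 7.49 in WT mESCs. Its difference in PILECs was -0.22, with a 95% interval of -0.82 to 0.38 (limma adjusted p = 0.718). Over the 8 arrays these probe sets correlated at -0.05, a description over arrays that share groups. The ending _x_at marks probes that can match other transcripts.

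Hoxa2, which patterns the hindbrain and the second branchial arch, read 4.52 and 4.59 in Men1-KO PILECs, 5.54 and 5.73 in WT PILECs, 4.52 and 4.37 in Men1-KO mESCs, and 4.49 and 4.63 in WT mESCs. Both WT PILEC arrays were above all other arrays, which lay between 4.37 and 4.63. It was 2.12-fold lower in Men1-KO PILECs (difference -1.08, SE 0.11, limma adjusted p = 0.003), with both groups under the low-signal limit. Among the receptor probe sets it ranked above 28.8% in Men1-KO PILECs and above 75.0% in WT PILECs.

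Hoxa4, which acts in patterning of the vertebral column, was likewise highest in WT PILECs on 1427354_at, with 4.10 and 3.99 in Men1-KO PILECs, 5.05 and 4.94 in WT PILECs, 4.55 and 4.34 in Men1-KO mESCs, and 4.15 and 4.36 in WT mESCs. The difference was -0.95 (SE 0.12, 1.93-fold lower, limma adjusted p = 0.00665), again under the limit in both groups. The call was lost without WT PILEC replicate 1, without WT PILEC replicate 2 or without Men1-KO PILEC replicate 2, with an adjusted p of at most 0.0792 over the alternatives. Hoxa4 1420226_x_at lay between 3.78 and 4.04 on all 8 arrays and differed by 0.05 in PILECs (limma adjusted p = 0.869), at a signal above 3.75% to 8.75% of the receptor probe sets.

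Hoxa3, needed for the thymus and the parathyroid glands, had 4 probe sets that did not give 1 answer. The brightest, 1452421_at, read 7.25 and 7.02 in Men1-KO PILECs and 7.23 and 7.31 in WT PILECs, a difference of -0.13 with a 95% interval of -0.53 to 0.26 (limma adjusted p = 0.744). The dimmer 1427433_s_at, designed from the same sequence record, read 5.45 and 5.40 in Men1-KO PILECs and 6.20 and 5.90 in WT PILECs. Its difference was -0.63 (SE 0.12, 1.54-fold lower, limma adjusted p = 0.029). That call was lost without any 1 of 6 arrays, the WT mESC, WT PILEC and Men1-KO PILEC arrays. It was also lost without moderation of the variances (limma fit, adjusted p = 0.112). The other probe sets, 1431392_at and 1429398_at, differed by -0.05 and -0.35 (limma adjusted p = 0.806 and 0.199). Over the 8 arrays the 3 dimmer probe sets correlated with the brightest at 0.59, -0.13 and 0.82.

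Hoxa7, an axial patterning gene between Hoxa6 and Hoxa9 in the cluster, was among the brightest members and had no call. It read 7.38 and 7.27 in Men1-KO PILECs, 7.70 and 7.69 in WT PILECs, 8.17 and 7.33 in Men1-KO mESCs, and 7.41 and 7.74 in WT mESCs. Both Men1-KO PILEC arrays were below both WT PILEC arrays, but the difference of -0.37 had a 95% interval of -0.93 to 0.18 (limma adjusted p = 0.457). The estimate of spread includes the Men1-KO mESC arrays, which lay furthest apart. Fitted on the PILEC arrays alone, Hoxa7 again had no call.

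Toward the other end of the cluster the probe sets were dim and none was called. Hoxa10, which patterns the lumbar region and the uterus, read 4.53 and 4.41 in Men1-KO PILECs and 5.19 and 5.0 in WT PILECs on 1431475_a_at. Its difference of -0.63 missed the threshold (limma adjusted p = 0.0568) and passed it under 5 alternatives, such as an intensity trend (adjusted p = 0.0153), with a range of 0.0153 to 0.303 over all. On 1446408_at, Hoxa10 read 4.51 and 4.60 in Men1-KO PILECs and 4.43 and 4.31 in WT PILECs, a difference of 0.19 (limma adjusted p = 0.352). The Hoxa10 probe sets therefore differed in sign, and correlated at -0.79 over the 8 arrays. Hoxa11, needed for the forearm and for kidney and uterus development, read 5.41 and 5.34 in Men1-KO PILECs and 5.38 and 5.30 in WT PILECs. These arrays overlapped, and the difference of 0.03 had a 95% interval of -0.29 to 0.36 (limma adjusted p = 0.933). Hoxa13, a HoxA gene outside the members, was under the low-signal limit in every group and differed by -0.09 in PILECs (limma adjusted p = 0.881).

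**Figure D2:**
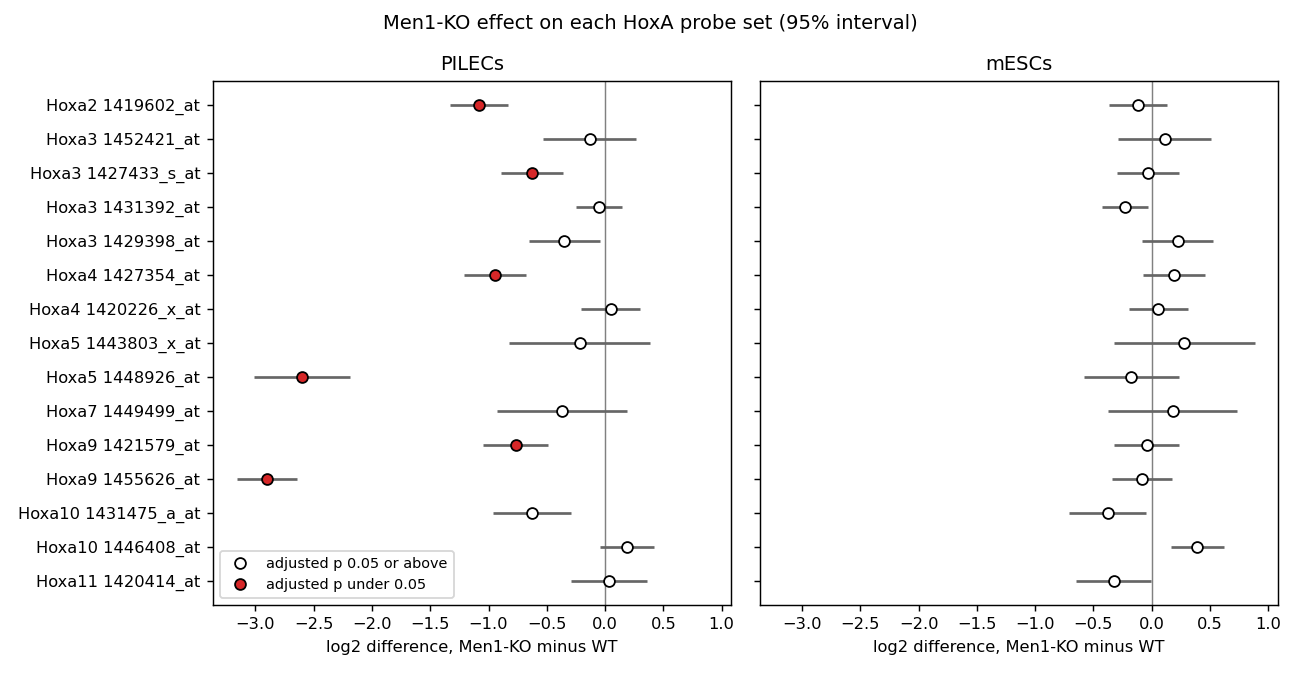
Log2 difference, Men1-KO minus WT (horizontal axis), for each HoxA probe set in cluster order (vertical axis), in PILECs and in mESCs, with 95% intervals from the fit as bars and filled points for an adjusted p under 0.05. In PILECs 6 of 15 points are filled, all below 0, and in mESCs 0 are.

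Counted by arrays alone, both Men1-KO PILEC arrays were below both WT PILEC arrays for 11 of the 15 probe sets, where 28.5% of all probe sets did the same, and above them for 1, where 23.7% of all did. The arrays overlapped for 3. Of the 6 probe sets called lower, 3 were under the low-signal limit in both PILEC groups (Hoxa2, Hoxa3 1427433_s_at and Hoxa4 1427354_at), 2 were under it in Men1-KO PILECs only (Hoxa5 1448926_at and Hoxa9 1455626_at), and 1 was above it in both (Hoxa9 1421579_at). Read from the brightest probe set of each gene, 3 of 8 genes were lower (Hoxa2, Hoxa4 and Hoxa9), where 3.08% of all genes were, and Hoxa5 was then not among them. Refitted with 1 probe set per gene, 4 of 8 were lower, with Hoxa10 added (adjusted p = 0.0438).

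**Figure D3:**
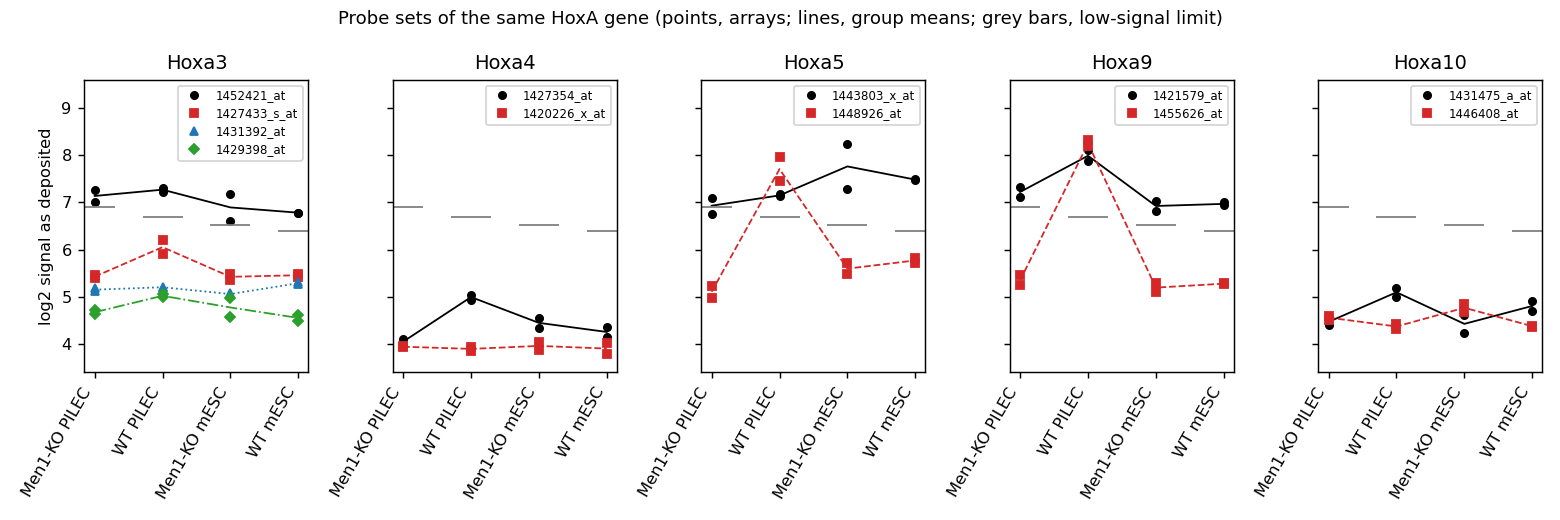
Log2 signal as deposited (vertical axis) in the 4 groups (horizontal axis) for the 5 HoxA genes with several probe sets; points are arrays, lines join group means and gray bars are the low-signal limit of each group. For Hoxa5 the difference between Men1-KO and WT PILECs was -2.60 on 1448926_at (red) and -0.22 on the brightest probe set (black).

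To ask whether the genotypes already differed before differentiation, Men1-KO mESCs were compared with WT mESCs. None of the 15 probe sets passed an adjusted p under 0.05 by limma, where 0.718% of all probe sets were higher and 1.49% were lower, and at an unadjusted p under 0.05 there were 3 lower and 1 higher, where 8.74% of all were lower and 7.73% were higher. Those 4 were Hoxa3 1431392_at (-0.23), Hoxa10 1431475_a_at (-0.38), Hoxa11 (-0.33) and Hoxa10 1446408_at (0.39, adjusted p = 0.0956), all under the low-signal limit. The probe sets with the largest differences in PILECs had nearly equal signals here, all under the low-signal limit in both mESC groups. Such signals include background, so they do not show whether the genotypes expressed these genes equally. Hoxa9 1455626_at differed by -0.08 (95% interval -0.34 to 0.18) and Hoxa5 1448926_at by -0.17 (95% interval -0.58 to 0.23). The Men1-KO mESC arrays were both below the WT mESC arrays for 4 probe sets (23.1% of all), both above for 1 (22.9% of all), and overlapped for 10. The Men1-KO mESC arrays differed most from each other at Hoxa5 1443803_x_at (8.23 and 7.29) and Hoxa7 (8.17 and 7.33), and without Men1-KO mESC replicate 2 the count of HoxA calls in mESCs was 4, of which 3 were higher, while calls over all 34945 probe sets numbered 2540 without that array and 770 with it.

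The change of the HoxA genes during differentiation was read in each genotype. In WT cells 8 of the 15 probe sets were higher in PILECs than in mESCs, where 27.7% of all probe sets were higher, and 0 were lower, where 32.8% of all were lower. Hoxa9 1455626_at rose 7.85-fold (difference 2.97, limma adjusted p = 1.49e-07), or at least 3.6-fold against the low-signal limit of WT mESCs. Hoxa5 1448926_at rose 3.83-fold (1.94, limma adjusted p = 1.99e-05), or at least 2.47-fold against that limit. Hoxa2 rose 2.11-fold (1.08, limma adjusted p = 3.68e-05) and Hoxa9 1421579_at rose 2.03-fold (1.02, limma adjusted p = 0.000109). Smaller rises were those of Hoxa4 1427354_at (0.74) and of Hoxa3 1427433_s_at (0.60), 1452421_at (0.49) and 1429398_at (0.47), with adjusted p-values of 0.000563, 0.00209, 0.0377 and 0.0144. Hoxa7, Hoxa10 and Hoxa11 had no call. The call of Hoxa3 1452421_at was lost without WT mESC replicate 1 or 2 or without WT PILEC replicate 1 or 2, and that of 1429398_at without WT mESC replicate 1 or without WT PILEC replicate 1 or 2. Both were also lost without moderation of the variances, and that of 1452421_at under quantile normalization.

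In Men1-KO cells 0 of the 15 probe sets were higher in PILECs than in mESCs, where 28.9% of all probe sets were higher, and 1 was at an unadjusted p under 0.05, where 30.4% of all were. Without Men1-KO mESC replicate 1 the count of higher probe sets was 2. The median difference over the 15 was 0.00 in Men1-KO cells and 0.47 in WT cells, beside -0.05 and -0.06 over all probe sets. The lower ones were 3, where 33.8% of all were lower, namely Hoxa4 1427354_at (-0.40, limma adjusted p = 0.0157), Hoxa5 1443803_x_at (-0.83, limma adjusted p = 0.0224) and Hoxa5 1448926_at (-0.49, limma adjusted p = 0.0398). All 3 calls were lost without Men1-KO mESC replicate 1. Without Men1-KO PILEC replicate 1 the count was 1, and without Men1-KO mESC replicate 2 it was 6. The comparisons within each genotype and within each cell type share arrays, so their counts are given side by side and not as separate evidence.

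The difference between the genotypes was itself compared between the cell types, as the Men1-KO effect in PILECs minus that in mESCs. It was below 0 for 4 of the 15 probe sets at an adjusted p under 0.05, where 0.787% of all probe sets were, and for 7 at an unadjusted p under 0.05, where 9.29% of all were. The 4 were Hoxa9 1455626_at (-2.82, SE 0.16, limma adjusted p = 0.000371), Hoxa5 1448926_at (-2.43, SE 0.25, limma adjusted p = 0.00515), Hoxa4 1427354_at (-1.14, SE 0.16, limma adjusted p = 0.0199) and Hoxa2 (-0.97, SE 0.15, limma adjusted p = 0.0278). All 4 were under the low-signal limit in both mESC groups, so the mESC part of each difference rests on signals that include background. Leaving out any 1 PILEC array or either WT mESC array left the calls of Hoxa9 and Hoxa5, while those of Hoxa4 and Hoxa2 were lost. Without moderation of the variances only Hoxa9 kept its call, and Hoxa5 lost it (limma fit, adjusted p = 0.11). Over the alternatives the difference ran from -2.93 to -2.71 for Hoxa9 and from -2.69 to -2.16 for Hoxa5.

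The genes around and related to the HoxA members were read by the brightest probe set of each gene, where 3.08% of all genes were lower in Men1-KO PILECs, 1.66% were higher and the median was -0.01. Among paralogs of the members in HoxB, HoxC and HoxD, 10 of 14 measured genes were lower in Men1-KO PILECs and 0 were higher, with a median of -1.14. Hoxb5 averaged 4.71 in Men1-KO PILECs and 7.66 in WT PILECs (7.73-fold lower, limma adjusted p = 0.00219), and Hoxb2 averaged 6.89 in Men1-KO PILECs and 9.07 in WT PILECs (4.53-fold lower, limma adjusted p = 0.00173). Under the low-signal limit were 11 of these 14 in Men1-KO PILECs and 5 in WT PILECs. Hoxb5 and Hoxb2 were under it in Men1-KO PILECs, so their folds are folds of signal that includes background. In mESCs 0 of the 14 passed by limma, where 1.8% of all genes were lower and 0.824% were higher. At an unadjusted p under 0.05 there were also 0, where 8.74% of all probe sets were lower and 7.73% were higher. Under the limit in mESCs were 12 of the 14 in Men1-KO cells and 11 in WT cells. Of the neighbors, 0 of 9 genes flanking the HoxA cluster on chromosome 6 passed in PILECs by limma, with 3 at an unadjusted p under 0.05 and a median of -0.14. At that unadjusted threshold 12.4% of all probe sets were lower in PILECs and 7.03% were higher. Among 9 genes, 0 passing is near the share of all genes. The study examined these same samples for Hox genes, so the paralog list is no independent evidence of direction.

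Cofactors and regulators of Hox genes were counted in the same way. Of 8 Hox cofactors, 1 was lower in Men1-KO PILECs, Meis1, a homeodomain partner of Hox proteins, at 9.62 in Men1-KO PILECs and 10.7 in WT PILECs (2.15-fold lower, limma adjusted p = 0.00806), and the list's median was -0.34. Of 11 genes of MLL complexes, Men1 alone passed (median -0.16). Of 15 Polycomb genes, which silence Hox clusters, 3 were lower and 1 was higher (median -0.24), with Cbx7 higher by 0.81 and the methyltransferase gene Ezh2 lower by 0.50. Of 13 genes upstream of Hox genes, of retinoic acid signaling, the Cdx factors, Wnt3a and Gdf11, 4 were lower and 1 was higher (median -0.08). Crabp1, which binds retinoic acid in the cytoplasm, was 2.74-fold lower (limma adjusted p = 0.000441), and Rarb, a retinoic acid receptor gene that retinoic acid itself turns on, was 2.0-fold lower (limma adjusted p = 0.0119). The higher gene was Cyp26a1, which degrades retinoic acid and is itself turned on by it, at 7.15 in Men1-KO PILECs and 6.57 in WT PILECs (1.49-fold higher, limma adjusted p = 0.0262). Its signal in WT PILECs was under the low-signal limit.

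Markers of other cell types moved with the HoxA difference in part. Of 10 striated muscle genes, 7 were lower in Men1-KO PILECs (median -1.62), led by Actc1 (cardiac actin, -2.78, limma adjusted p = 0.000609) and Myog (myogenin, -2.29, limma adjusted p = 0.00191). The mean level of the list was 7.11 to 7.43 on the Men1-KO PILEC arrays and 8.50 to 8.80 on the WT PILEC arrays, beside 6.61 to 6.68 on the Men1-KO mESC arrays and 6.75 to 6.82 on the WT mESC arrays. Of the 10, 3 in Men1-KO PILECs and 2 in WT PILECs were under the low-signal limit, where 45.4% and 41.9% of all probe sets were. Myod1 and Myf5, which define myoblasts, were under it in both groups. Myod1 was still higher by 0.64 in WT PILECs than in WT mESCs (limma adjusted p = 0.0029). Of 8 pluripotency genes 5 were lower (median -0.78, list mean 8.65 to 8.70 on Men1-KO PILEC arrays and 9.18 to 9.37 on WT PILEC arrays), led by Dppa5a (-0.999) and Zfp42 (-0.98). Of 13 fibroblast genes 1 was higher, Thy1 by 1.01, and 1 was lower, Prrx1 by 0.99 (median -0.14). Their list means were 9.99 to 10.3 on Men1-KO PILEC arrays and 10.3 to 10.5 on WT PILEC arrays. At an unadjusted p under 0.05 there were 7 of the 13, in both directions, where 12.4% of all probe sets were lower and 7.03% were higher. Thy1 was under the low-signal limit in WT PILECs. Of 10 neuronal genes 1 was higher, Syt1 by 0.59. Their list means were 11.78 to 11.96 on Men1-KO PILEC arrays and 11.78 to 11.81 on WT PILEC arrays. Of 13 islet genes 0 passed, with list means of 6.96 to 7.05 on Men1-KO PILEC arrays and 7.01 to 7.05 on WT PILEC arrays. At an unadjusted p under 0.05 there were 4 islet genes, where 12.4% of all probe sets were lower and 7.03% were higher. The part of muscle or pluripotent cells in the HoxA difference was not tested.

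**Figure D4:**
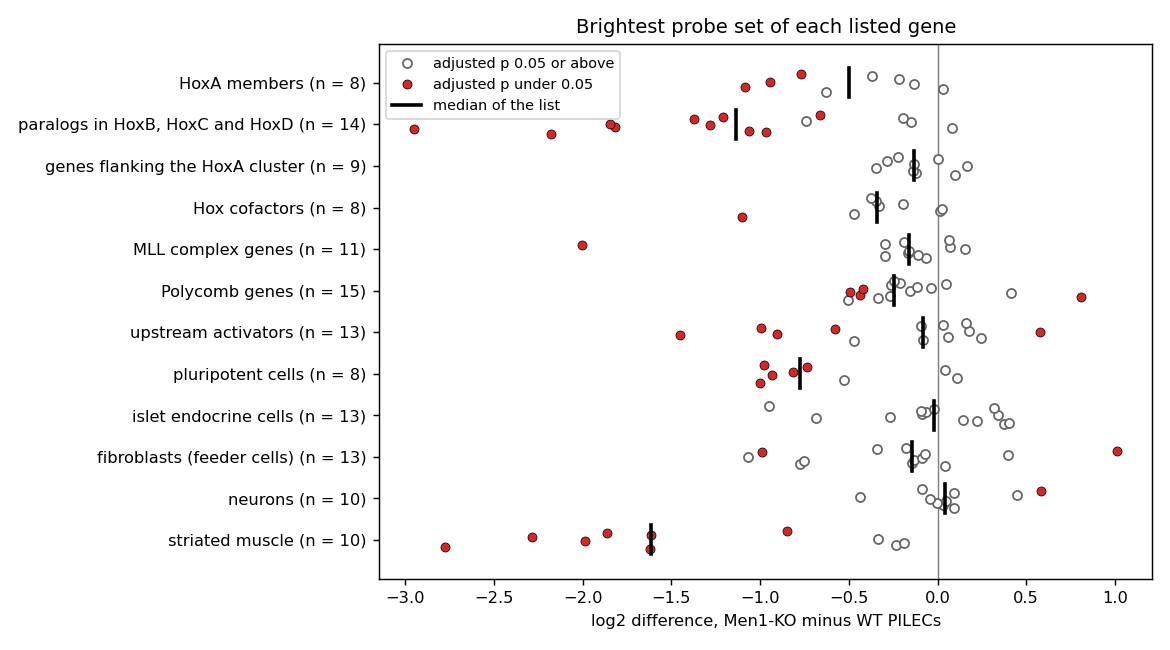
Log2 difference, Men1-KO minus WT PILECs (horizontal axis), of the brightest probe set of each gene in 12 lists (vertical axis), filled where the adjusted p was under 0.05, with the median of each list as a bar. The paralogs in the other Hox clusters (10 of 14 lower) and striated muscle genes (7 of 10 lower) lie furthest to the left. Of 9 flanking genes 0 passed, where 3.08% of all genes were lower and 1.66% were higher.

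The genes whose signal over the 8 arrays was most like Hoxa9 1455626_at, the HoxA probe set of highest level in WT PILECs, were found among 12061 genes with a mean of at least 7 in a group. They were Hoxb6 (r = 0.996), Hoxc4 (r = 0.994), Adipoq (adiponectin, r = 0.989), Crabp1 (r = 0.988) and Hoxb5 (r = 0.974). Hoxb6 averaged 5.51 in Men1-KO PILECs, 9.04 in WT PILECs, 5.25 in Men1-KO mESCs and 5.27 in WT mESCs. The genes were picked for their likeness to Hoxa9, so a shared pattern follows from the choice and is no separate result. Hoxb6, Hoxc4, Adipoq and Hoxb5 reached the mean of 7 through WT PILECs alone. The 8 points share 4 groups, so these correlations describe the arrays and carry no test.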

How the data were processed

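Expression was measured in total RNA of 8 cultures, 1 Affymetrix mouse genome array each, from biotin-labeled cRNA. The values are the deposited log2 signals, 1 per probe set and array. RMA and Partek are listed in the submitters' processing notes, while the study's methods name Affymetrix Microarray Analysis Suite 5.0, with the version of the first pair not given in the sources used here, so which of them made the values is not settled. The number of arrays limits the precision, and with 2 arrays against 2 an exact permutation test of 1 gene cannot go below p = 0.333.

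Of 45101 probe sets, 64 were controls, 9160 had no gene symbol and 932 had several, and these were left out. A mean per group was fitted over all 8 arrays to the other 34945 with limma 3.58.1 in R 4.3.3 (lmFit and eBayes, 4 residual and 4.06 prior degrees of freedom), and p-values were adjusted over all of them by the method of Benjamini and Hochberg. A probe set is said to be called, to rise or to fall where its adjusted p was under 0.05. Every probe set of the members is named, with Men1, the 2 members of each other list with the largest difference that passed, and the 5 genes most like the brightest HoxA probe set of WT PILECs. Hoxa13, Cyp26a1 and the islet and muscle markers under the low-signal limit (Gcg, Ppy, Iapp, Pdx1, Myod1 and Myf5) lie outside this rule and were named after their values were seen. The members and lists were chosen with earlier results of these data known. Groups and replicate numbers come from the sample titles. Python 3.11.15 with pandas 2.3.3 and matplotlib 3.10.9 counted motifs and drew the plots. Alternatives covered normalization, filters, probe set choice, the variance model, a replicate block and leaving out each array.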

Additional observations from a re-analysis of the deposited data

Results flagged for a closer look

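The Men1-KO effect differed between the cell types, by the test of the difference itself (PILECs minus mESCs, limma, adjusted over all probe sets), for 4 HoxA probe sets. The difference was -2.82 for Hoxa9 (1455626_at), -2.43 for Hoxa5 (1448926_at), -1.14 for Hoxa4 (1427354_at) and -0.97 for Hoxa2 (1419602_at), all on the log2 scale. All 4 probe sets lay under the low-signal limit in both mESC groups, and those of Hoxa2 and Hoxa4 in both PILEC groups too. The mESC part of each difference thus rests on signals that include background.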

How the results depend on the processing

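The count of 6 HoxA probe sets lower in Men1-KO PILECs became 3 with only probe sets at or above the low-signal limit. It became 3 with only those of a mean of at least 7 in a group, and 3 at the cutoffs of the study on limma p-values. Without moderation of the variances it became 2, where calls over all 34945 probe sets fell from 1353 to 275. Fewer of the 15, and fewer of all probe sets, passed without any 1 PILEC or WT mESC array. More of both passed when either Men1-KO mESC array was left out. The count of 0 in mESCs became 0 to 4 when single arrays were left out (4 without Men1-KO mESC replicate 2). The 8 higher in WT PILECs than in WT mESCs became 4 with 1 probe set per gene, 4 with either filter, 7 under quantile normalization, 6 without moderation and 6 to 9 without single arrays. The 3 lower in Men1-KO PILECs than in Men1-KO mESCs became 1 without moderation and 0 to 6 without single arrays, and the 0 higher became 2 without Men1-KO mESC replicate 1 and 1 with either filter. The 4 of the difference between cell types became 2 with 1 probe set per gene, 2 with either filter, 1 without moderation and 2 to 7 without single arrays. The filters and 1 probe set per gene test fewer members, and the cause of the other shifts was not tested. Hoxa9 1455626_at and Hoxa5 1448926_at kept their call in PILECs under the 15 alternatives other than these filters, which they pass through WT PILECs alone (highest adjusted p 0.0216 and 0.0447), and Hoxa2 lost it only without moderation (adjusted p = 0.0534). The Hoxa11 difference in PILECs turned in sign under quantile normalization (-0.024) and ran from -0.024 to 0.074 over all alternatives (-0.0071 to 0.074 without single arrays), with an adjusted p of 0.881 or more.

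The titles do not say whether same-numbered arrays shared a day or culture. Correlations of the deviations of same-numbered arrays ran from -0.278 to 0.222, which does not settle it. With the replicate block the counts were 6 in PILECs, 0 in mESCs, 8 in WT cells, 3 in Men1-KO cells and 3 for the difference between cell types, where Hoxa2 was lost.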
